A study of Mus musculus with 2 samples.

Results

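The 8 ligand and receptor genes described here steer neutrophils and other white blood cells, and were followed through colon lamina propria cells of mice recovering from colitis. They are the chemokines Cxcl1, Cxcl2, Cxcl3 and Cxcl16, the chemokine receptors Cxcr2, Cxcr4 and Cxcr6, and Csf3r, the receptor for granulocyte colony-stimulating factor. The genes were taken by name, and all 8 of 8 were found among the 32285 genes of both count tables. Each was described across the clusters that were deposited with the cells and between both genotypes.

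The library labelled TG (also marked TG beside values) came from C57BL/6 mice labelled E4BP4 transgenic, with overexpression of this transcription factor in macrophages, and the WT library from wild type C57BL/6 mice. All mice were 8 weeks old, and both groups drank 2.0% dextran sulphate sodium, which injures the lining of the colon and starts colitis, for 7 days. They were sampled on day 14, after 7 days of plain water. Live cells bearing CD45, the surface protein common to white blood cells, were sorted and profiled by droplet single-cell RNA sequencing from transcript 5′ ends. There was 1 library a genotype, so no difference was tested, no p-value is given, and every interval covers counting error only. The number of mice in a library and the promoter that drives the transgene are not given in the sources used here.

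Depth came to 58884332 UMIs (counted molecules) over 10143 barcodes for the library labelled TG and 69346746 UMIs over 9855 barcodes for the WT library, of which 7026 (TG) and 6466 (WT) barcodes carried a deposited cluster. The libraries shared 142 barcode sequences, of which 67 were among the clustered cells of both. Nfil3, the gene that encodes E4BP4, stood at 73.8 CPM (UMIs scaled to the sum of a cluster, as counts-per-million) in macrophage-like cells of the library labelled TG and at 84.4 CPM in those of the WT library, a TG over WT ratio of 0.874 (95% interval 0.724 to 1.06). The count tables therefore do not bear the label out, and whether reads from the transgene would be counted as Nfil3 is not stated, so each direction below rests on the label alone. Of 10 coarser clusters, 7 could be named from marker genes, with B-like, T-like, macrophage-like, monocyte-like, neutrophil-like, dendritic-like and fibroblast-like cells, and 15 finer clusters were also used. Fibroblast-like cells were present although the sort was for CD45. In the neutrophil-like cluster 10 of 10 neutrophil markers, chosen without Cxcr2 and Csf3r, were at least 2-fold above the other clusters. Neutrophil-like cells made up 2.38% of clustered cells in the library labelled TG (167 cells) and 10.0% in the WT library (648 cells). Monocyte-like cells made up 6.22% in the library labelled TG and 12.6% in the WT library, and macrophage-like cells 15.7% in the library labelled TG and 10.3% in the WT library.

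Neutrophils leave the bone marrow and enter inflamed tissue by following chemokines. CXCR2 is the receptor that binds CXCL1, CXCL2 and CXCL3 and draws neutrophils towards their source, whereas CXCR4 binds CXCL12 and holds young neutrophils in the marrow, and neutrophils that age in blood are known to regain it. CSF3R passes on the signal that makes neutrophils and keeps them alive. CXCR6 and its ligand CXCL16, which also exists as a membrane-bound form on macrophages and dendritic cells, mainly position T cells and innate lymphoid cells.

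All 8 genes lie on assembled chromosomes of the mm10 build. Cxcl3 (chr5:90786103-90789600), Cxcl1 (chr5:90891241-90893115) and Cxcl2 (chr5:90903871-90905938) lie near one another on the plus strand. Cxcr2 (chr1:74153989-74161246, plus strand) and Cxcr4 (chr1:128588199-128592293, minus strand) share a chromosome. Csf3r lies at chr4:126024550-126044440 and Cxcr6 at chr9:123806475-123811760, both on the plus strand, and Cxcl16 at chr11:70453983-70459984 on the minus strand.

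The promoters of the 3 CXCR2 ligands, Cxcl1, Cxcl2 and Cxcl3, are shown here. Their part in any difference between the libraries was not tested. RefSeq promoters (build GRCm38.p6, plus strand) span 250 bases before to 50 after the start, here chr5:90890995-90891294 for Cxcl1, chr5:90903649-90903948 for Cxcl2 and chr5:90785851-90786150 for Cxcl3. Capitals mark matches of GGGANNTTCC, the letters of a site for NF-kB transcription factors with its middle bases free, and of ATAAAAG, the letters of a TATA box.
Cxcl1: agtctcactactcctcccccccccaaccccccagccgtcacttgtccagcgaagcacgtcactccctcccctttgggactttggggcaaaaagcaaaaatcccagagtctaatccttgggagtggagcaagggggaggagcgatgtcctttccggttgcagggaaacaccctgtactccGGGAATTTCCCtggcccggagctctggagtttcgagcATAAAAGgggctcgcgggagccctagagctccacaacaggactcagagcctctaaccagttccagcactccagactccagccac
Cxcl2: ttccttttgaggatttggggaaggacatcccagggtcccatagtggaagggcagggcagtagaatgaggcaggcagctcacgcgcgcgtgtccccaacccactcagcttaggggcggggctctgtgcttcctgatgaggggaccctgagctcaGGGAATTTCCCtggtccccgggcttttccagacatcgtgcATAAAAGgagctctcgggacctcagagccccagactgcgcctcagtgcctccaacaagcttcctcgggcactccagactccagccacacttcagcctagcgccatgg
Cxcl3: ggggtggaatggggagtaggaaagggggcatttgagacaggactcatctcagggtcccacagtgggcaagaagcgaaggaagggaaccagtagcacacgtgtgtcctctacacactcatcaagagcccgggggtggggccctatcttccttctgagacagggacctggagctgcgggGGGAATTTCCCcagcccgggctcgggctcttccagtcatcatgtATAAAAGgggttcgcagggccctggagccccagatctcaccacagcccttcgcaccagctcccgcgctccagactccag
GGGANNTTCC matched on both strands at overlapping places, the first beginning 71 bases before the start in Cxcl1, 97 in Cxcl2 and 73 in Cxcl3, and ATAAAAG began 34, 57 and 29 bases before it. Searched on both strands, GGGANNTTCC was found in 482 of 32851 promoters of this length (1.47%) and ATAAAAG in 1779 (5.42%). Of the other genes with a promoter in the table, Cxcr4 held ATAAAAG 29 bases before its start and Csf3r held GGGANNTTCC 129 bases before its start, while Cxcr2 and Cxcr6 held neither. A match of letters says nothing of binding.

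Over all clustered cells, the 3 CXCR2 ligands and the 2 neutrophil receptors were lower in the library labelled TG, and Cxcl16, Cxcr4 and Cxcr6 were higher. Cxcl2 stood at 884 CPM in the library labelled TG and 5100 CPM in the WT library, a ratio of 0.173 (0.1705 to 0.176). Cxcl3 stood at 60.7 CPM (TG) and 1028 CPM (WT, ratio 0.0590) and Cxcl1 at 40.0 CPM (TG) and 139 CPM (WT, ratio 0.287). Cxcr2 stood at 10.4 CPM (TG) and 54.7 CPM (WT, ratio 0.190) and Csf3r at 34.2 CPM (TG) and 84.3 CPM (WT, ratio 0.406). In pooled cells, fewer cells of a kind and less RNA per cell cannot be told apart, and the neutrophil-like and monocyte-like shares above were lower as well. Cxcl16 stood at 160 CPM in the library labelled TG against 124 CPM in the WT library (ratio 1.29), Cxcr4 at 359 against 239 CPM (ratio 1.5) and Cxcr6 at 77.4 against 50.5 CPM (ratio 1.53). With all barcodes of the tables, clustered or not, the ratios of Cxcl1, Cxcl2 and Cxcl3 were 0.324, 0.220 and 0.0652, and those of Cxcl16, Cxcr4 and Cxcr6 were 1.11, 1.54 and 1.57.

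**Figure D1:**
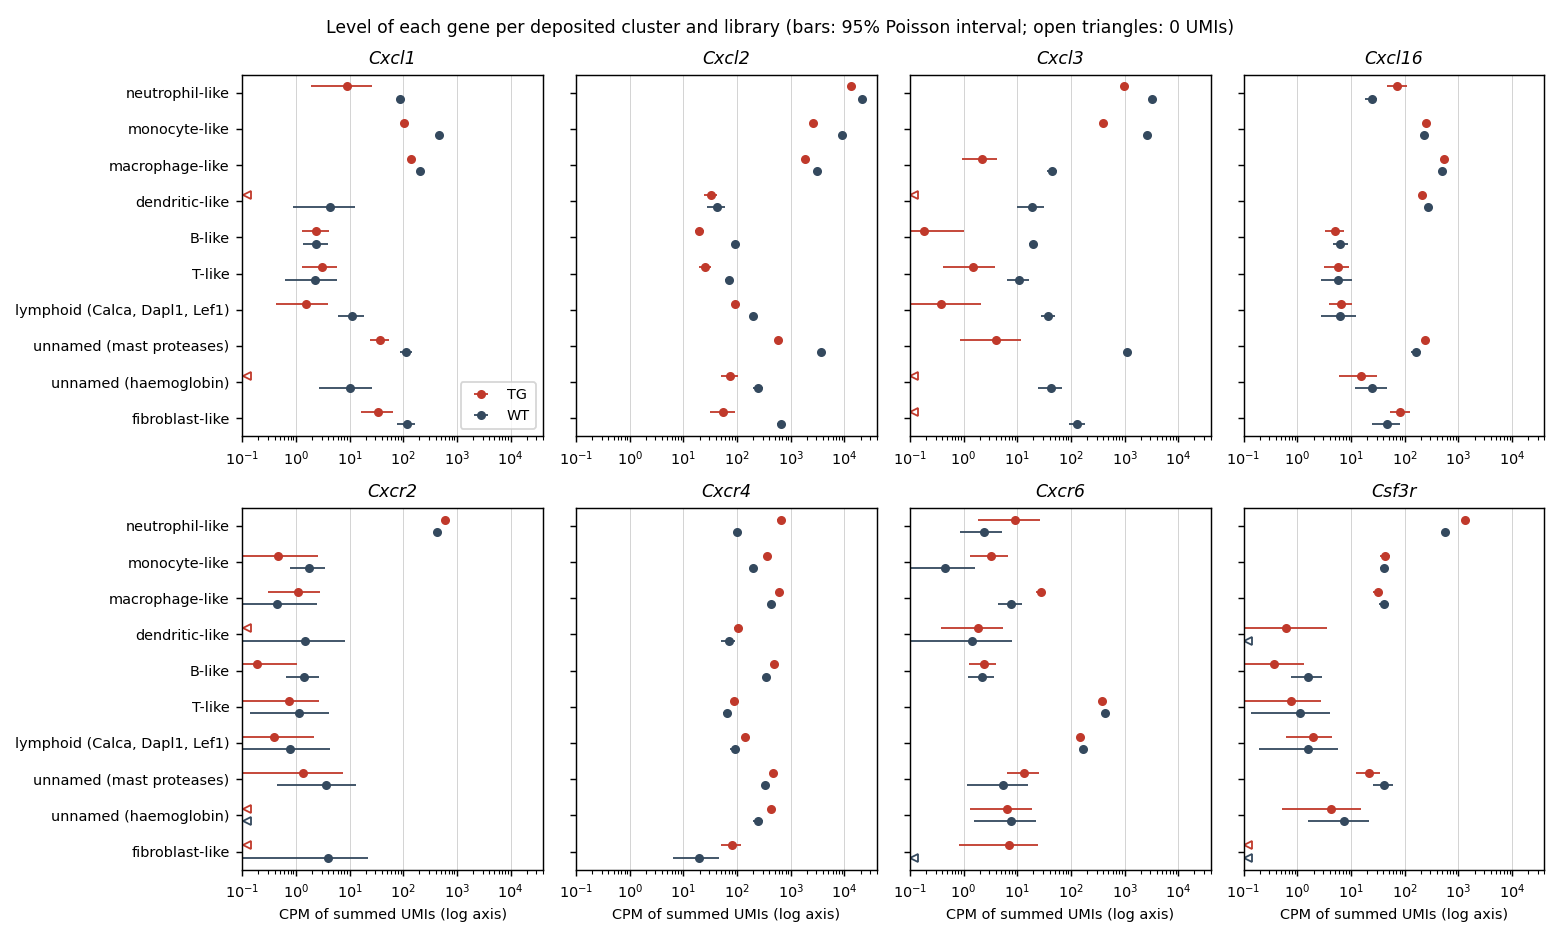
CPM of each gene (log axis) in the 10 coarser clusters, with the library labelled TG above the WT library in each row; bars are 95% Poisson intervals and open triangles mark 0 UMIs. Cxcr2 stands out in neutrophil-like cells at 596 CPM in the library labelled TG and 433 CPM in the WT library, an order that turns under other scalings, whereas Cxcr4 is spread over most clusters.

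Where the transcripts lay differed by gene and by library. Neutrophil-like cells held 95.2% of clustered Cxcr2 UMIs in the library labelled TG and 97.8% in the WT library, and 65.4% (TG) and 81.9% (WT) of those of Csf3r. The clusters rest on the same counts, so these shares describe the clustering and test nothing. For Cxcl2, macrophage-like cells held the greatest share in the library labelled TG, at 38.7% against 6.70% in the WT library, while neutrophil-like cells held 24.5% (TG) and 51.0% (WT). For Cxcl1, macrophage-like cells held 63.8% in the library labelled TG and 15.8% in the WT library, and monocyte-like cells 28.1% (TG) and 71.9% (WT). Cxcl3 lay mostly in monocyte-like cells in both libraries, with 71.8% (TG) and 55.9% (WT). The other 3 genes lay mainly outside neutrophils, so the group is one of leukocyte traffic more widely: macrophage-like cells held 63.4% (TG) and 43.6% (WT) of Cxcl16, B-like cells 36.7% (TG) and 45.4% (WT) of Cxcr4, and T-like cells 66.4% (TG) and 74.8% (WT) of Cxcr6.

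**Figure D2:**
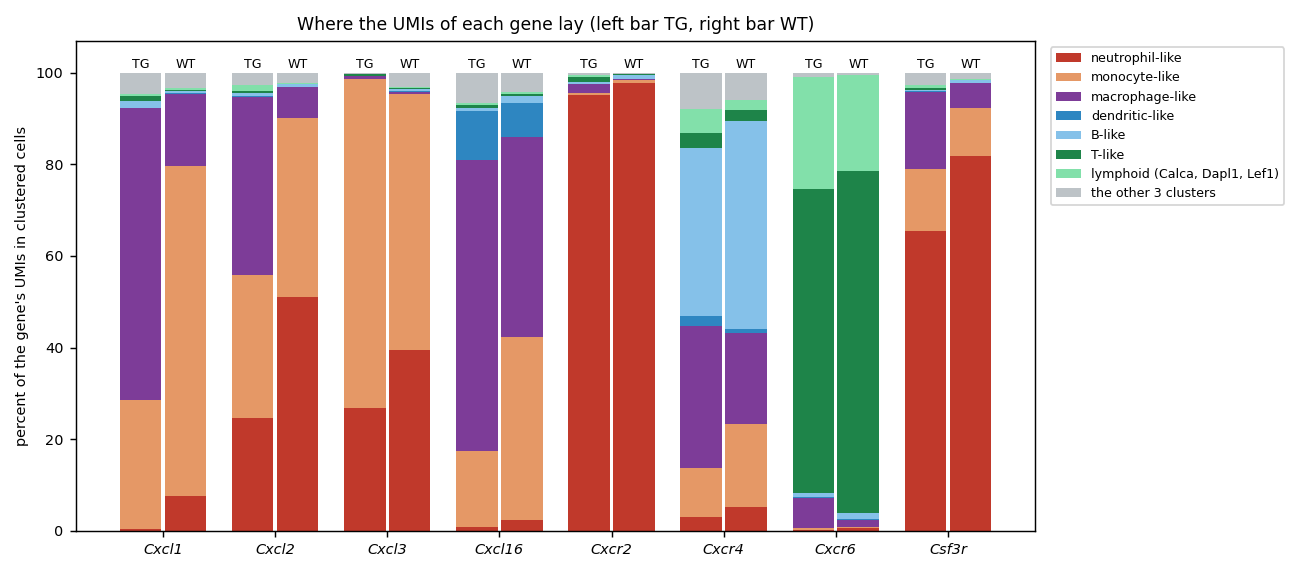
Percent of each gene's UMIs in clustered cells by coarser cluster, the left bar of each pair for the library labelled TG and the right bar for the WT library. Macrophage-like cells (purple) hold 63.8% of Cxcl1 UMIs in the library labelled TG and 15.8% in the WT library.

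In neutrophil-like cells, CXCR2 ligand transcripts were lower and the receptors Cxcr4 and Csf3r higher on the CPM scale in the library labelled TG. Of the 7 genes with at least 20 UMIs there, 3 were at least 1.5-fold higher (Cxcl16, Cxcr4 and Csf3r) and 3 at least 1.5-fold lower (Cxcl1, Cxcl2 and Cxcl3). Among all 6048 genes with as many UMIs in this cluster, 52.1% were at least 1.5-fold higher and 9.74% at least 1.5-fold lower, so a count of higher genes says little here. The median gene stood at 1.56 times its WT level (0.64 on the log2 scale). The shift was smaller for abundant genes, with a median of 1.1 for the 293 genes with at least 1000 WT UMIs. S100a9 and S100a8, the calprotectin genes that fill neutrophils, stood at 58257 and 31867 CPM in the library labelled TG against 133296 and 87762 CPM in the WT library. The cells were also shallower in the library labelled TG, with a median of 1751 UMIs against 3528.5 in the WT library.

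Cxcl2, a ligand that neutrophils themselves release at sites of damage, had 4330 UMIs in neutrophil-like cells of the library labelled TG (13104 CPM) and 53408 UMIs in those of the WT library (21083 CPM). The ratio was 0.622 (0.602 to 0.641). Most cells carried the transcript in both libraries, 88.0% in the library labelled TG and 98% in the WT library. B-like cells, which should lack it, gave 4.29% (TG) and 19.8% (WT), at median depths of 2235 (TG) and 2445 (WT) UMIs. Per 10000 UMIs of a cell, the median cell held 95 Cxcl2 UMIs in the library labelled TG and 109 in the WT library, the lower quartile stood at 22.0 (TG) and 45.5 (WT), and the upper quartile at 187 (TG) and 288 (WT).

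Cxcl3, a further CXCR2 ligand, had 325 UMIs in neutrophil-like cells of the library labelled TG (984 CPM) and 8341 UMIs in those of the WT library (3293 CPM), a ratio of 0.299 (0.267 to 0.334). A UMI was found in 19.8% of cells in the library labelled TG and in 50.3% in the WT library, against 0.0447% (TG) and 4.52% (WT) of B-like cells. In the library labelled TG, 5 cells held 52.9% of the Cxcl3 UMIs, and without the 5 richest cells of each library the ratio was 0.166. Cxcl1 was close to absent in the library labelled TG, with 3 UMIs (9.08 CPM) against 219 UMIs (86.5 CPM) in the WT library, a ratio of 0.105 (0.0215 to 0.311). Only 2.58% of all genes tested in this cluster were at least 3-fold lower, a size that both Cxcl3 and Cxcl1 passed. In the WT library 67.1% of the Cxcl1 UMIs also came from 5 cells.

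Cxcr2, the receptor for these ligands, had 197 UMIs in neutrophil-like cells of the library labelled TG (596 CPM) and 1097 UMIs in those of the WT library (433 CPM). Its ratio of 1.38 (1.18 to 1.60) lay above 1 on the CPM scale but below the median gene of the cluster. It lay above the median of 1.1 for genes with at least 1000 WT UMIs. The ratio turned to 0.883 under median-of-ratios scaling and 0.749 under TMM scaling, so no direction can be given. Cells with a UMI made up 61.7% in the library labelled TG and 63.3% in the WT library, against 0.0447% (TG) and 0.332% (WT) of B-like cells. Csf3r had 447 UMIs (1353 CPM) in the library labelled TG and 1417 UMIs (559 CPM) in the WT library, a ratio of 2.42 (2.17 to 2.69), where 31.7% of all genes were at least 2-fold higher. Relative to the median gene the Csf3r ratio was 1.55, and under TMM scaling it was 1.32, short of 1.5-fold.

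Cxcr4, the receptor that retains neutrophils in marrow and marks aged ones, differed most among the receptors of neutrophil-like cells. It had 214 UMIs (648 CPM) in the library labelled TG and 255 UMIs (100.7 CPM) in the WT library, a ratio of 6.43 (5.34 to 7.75). Ratios of at least 5 were found for 2.2% of all genes tested in the cluster, and relative to the median gene the Cxcr4 ratio was still 4.13. With each cell thinned to 1000 UMIs, which left 154 cells of the library labelled TG and 584 of the WT library and dropped 13 (TG) and 64 (WT) shallower ones, Cxcr4 was found in 43.5% (35.5 to 51.7) of TG and 9.08% (6.87 to 11.7) of WT cells. Without thinning the shares were 54.5% (TG) and 24.7% (WT). Fibroblast-like cells, taken as background for Cxcr4, gave 8.89% (TG) and 1.22% (WT) after the same thinning. Their median depths before it were 2720 UMIs (TG) and 2320 UMIs (WT). That cluster also had 4 of 4 endothelial markers at least 2-fold above the other clusters, at 472 CPM (TG) and 937 CPM (WT) summed. Whether all its cells should lack Cxcr4 was not tested. The WT share in neutrophil-like cells was thus near the background share of the library labelled TG but above that of its own library. These background shares rest on 8 of 90 cells (3.92 to 16.8) in TG and 1 of 82 (0.0309 to 6.61) in WT.

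The receptors were also followed cell by cell. After thinning, Csf3r was found in 66.2% of neutrophil-like cells in the library labelled TG and in 40.8% in the WT library, and Cxcr2 in 44.8% (TG) and 33.0% (WT), a CPM-scale order that turned under other scalings as above. Cxcr2 and Cxcr4 were found together in 20.8% (14.7 to 28.1) of cells in the library labelled TG and in 2.74% (1.57 to 4.41) in the WT library. In either library Cxcr4 was about as frequent with as without Cxcr2: 46.4% and 41.2% of cells in the library labelled TG, and 8.29% and 9.46% in the WT library. Cxcr4 transcripts were therefore not confined to cells that lacked Cxcr2.

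**Figure D3:**
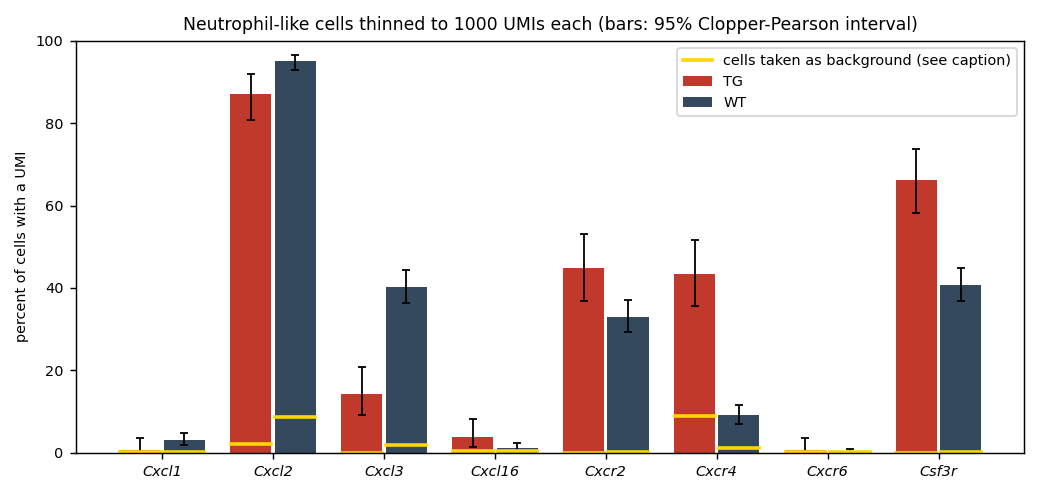
Percent of neutrophil-like cells with a UMI of each gene after thinning each cell to 1000 UMIs (154 cells of the library labelled TG, left bars, and 584 of the WT library, right bars), with 95% Clopper-Pearson intervals. Gold lines give the share in cells taken as background: T-like for Cxcl16, fibroblast-like for Cxcr4 and B-like for the rest. Cxcr4 stands at 43.5% in the library labelled TG and 9.08% in the WT library, and Cxcl3 at 14.3% (TG) and 40.2% (WT).

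Granule transcripts and markers of other cells in the neutrophil-like cluster also differed between the libraries. Transcripts of secondary granules (Camp, Ngp and Ltf), made while neutrophils mature, reached 1% of UMIs in 0 of 167 cells of the library labelled TG, which allows a share of up to 1.80%, and in 33 of 648 cells of the WT library. Those 33 cells had 18.0 CPM of Cxcr4 and 5612 CPM of Cxcl2. The other 615 WT cells had 111 CPM of Cxcr4 and 22984 CPM of Cxcl2, so without the granule-rich cells the Cxcl2 ratio was 0.570. Summed macrophage markers (10 genes) stood at 2382 CPM in neutrophil-like cells of the library labelled TG and 915 CPM in those of the WT library, and summed T cell markers (8 genes) at 284 CPM (TG) and 32.8 CPM (WT). Summed monocyte markers (10 genes) went the other way, at 2182 CPM (TG) and 3985 CPM (WT). The part of those transcripts in the Cxcr4 difference was not tested. Cxcl16, at 72.6 CPM in the library labelled TG and 24.1 CPM in the WT library, had 83.3% of its UMIs in 5 cells in the library labelled TG, and its ratio of 3.02 became 0.917 without the 5 richest cells of each library.

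In monocyte-like cells, recruited from blood and known as producers of CXCR2 ligands in the inflamed gut, all 3 ligands were lower in the library labelled TG. Of the 6 genes with at least 20 UMIs, 3 were at least 1.5-fold lower and 1, Cxcr4, at least 1.5-fold higher. Over all genes of this cluster 9.05% were at least 1.5-fold lower and 14.9% at least 1.5-fold higher. Cxcl3 stood at 402 CPM (870 UMIs) in the library labelled TG and 2620 CPM (11785 UMIs) in the WT library, a ratio of 0.153 (0.143 to 0.164). Cxcl1 stood at 103 CPM (224 UMIs, TG) and 456 CPM (2053 UMIs, WT), a ratio of 0.227 (0.197 to 0.260). Cxcl2 stood at 2559 CPM (TG) and 9098 CPM (WT), a ratio of 0.281 (0.273 to 0.289). The ligands were carried by few cells in the library labelled TG: 5 cells held 61.8% of Cxcl3 and 59.8% of Cxcl1, against 15.4% and 34.3% in the WT library. Summed neutrophil markers in monocyte-like cells stood at 103 CPM in the library labelled TG and 2418 CPM in the WT library, and their part in the ligand values was not tested.

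The finer clusters split these cells, though not as an exact division of the coarser cluster. A small cluster led by Arg1, Saa3 and Nos2, genes of inflammatory monocytes, had 51 cells in the library labelled TG and 217 in the WT library, and Cxcl3 was among its leading genes; it is called the ligand-rich cluster below. There Cxcl2 stood at 16719 CPM in the library labelled TG and 27420 CPM in the WT library (ratio 0.610) and Cxcl3 at 3508 CPM (TG) and 8879 CPM (WT, ratio 0.395). In this cluster 18.7% of all genes were at least 1.5-fold lower. In the library labelled TG 5 cells held 52.7% of its Cxcl2 and 64.3% of its Cxcl3. The larger monocyte-like finer cluster, with 390 (TG) and 636 (WT) cells, had 1133 CPM of Cxcl2 in the library labelled TG and 1934 CPM in the WT library (ratio 0.586), and 8.10 (TG) and 130 (WT) CPM of Cxcl3 (ratio 0.0625), where 8.84% of all genes were at least 1.5-fold lower. Those levels lie below 0.1 of the ligand-rich cluster's in the same library. A Cxcl2 UMI was found in 33.8% (TG) and 47.8% (WT) of cells, against 4.29% (TG) and 19.8% (WT) of B-like cells, and the part of free RNA in these levels was not tested. In both finer clusters the Cxcl2 ratio was nearer to 1 than in monocyte-like cells as a whole (0.281). For Cxcl3, at 0.153 as a whole, this held in the ligand-rich cluster but not in the larger one. The part of cluster sizes in these ratios was not tested.

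Among 8 finer clusters with enough UMIs, Cxcl1 went against the other ligands in 1 and was lower in the library labelled TG in 7. In the larger monocyte-like finer cluster it stood at 105 CPM in the library labelled TG and 44.3 CPM in the WT library, a ratio of 2.38 (1.91 to 2.97), where 11.9% of all genes were at least 1.5-fold higher. Of these UMIs 5 cells held 56.4% (TG) and 55.6% (WT). In the ligand-rich cluster it stood at 474 CPM (TG) and 1468 CPM (WT, ratio 0.323), with 97.3% of the UMIs of the library labelled TG in 5 cells. Without the ligand-rich cluster the Cxcl1 ratio of monocyte-like cells was 1.57.

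In monocyte-like cells Cxcl16 and Csf3r were nearer to equal, while Cxcr4 was higher in the library labelled TG. Cxcr4 stood at 355 CPM in the library labelled TG and 197 CPM in the WT library, a ratio of 1.80 (1.63 to 1.98). In the ligand-rich cluster the Cxcr4 ratio was 4.38 (3.0 to 6.38), at 222 CPM (TG) and 50.7 CPM (WT), against 23.6% of all genes at least 1.5-fold higher there. Cxcl16 stood at 246 CPM (TG) and 225 CPM (WT, ratio 1.09, 0.981 to 1.21) and Csf3r at 43.0 CPM (TG) and 40.2 CPM (WT, ratio 1.07, 0.822 to 1.38), neither reaching 1.5-fold.

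**Figure D4:**
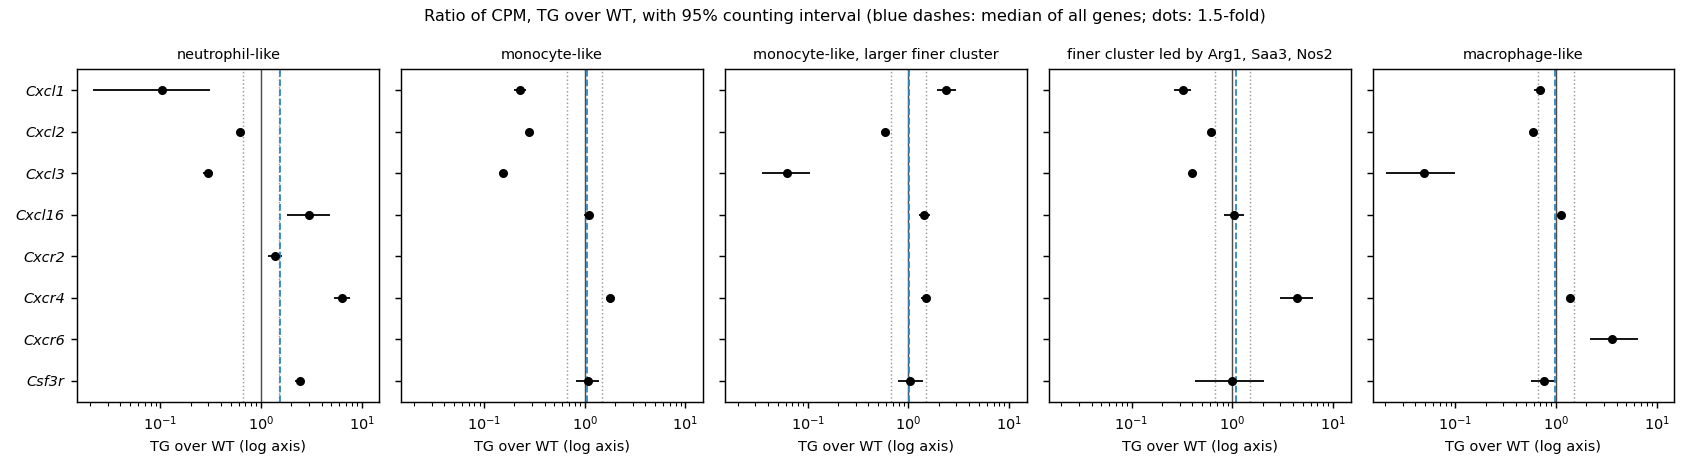
TG over WT ratio of CPM (log axis) with 95% counting intervals, for genes with at least 20 UMIs and a UMI in each library, in neutrophil-like, monocyte-like and macrophage-like cells and in a pair of finer clusters. Blue dashes mark the median of all genes (1.56 in neutrophil-like cells) and dotted lines 1.5-fold either way. Cxcl1 lies at 0.227 in monocyte-like cells but at 2.38 in their larger finer cluster.

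Macrophage-like cells, the type named in the transgene's design, had less Cxcl2 and about as much Cxcl16 in the library labelled TG. Cxcl2 stood at 1852 CPM in the library labelled TG (6828 UMIs) and 3111 CPM in the WT library (7006 UMIs), a ratio of 0.595 (0.576 to 0.615). Cells with a Cxcl2 UMI made up 47.8% (TG) and 55.6% (WT), and the median cell held 0 UMIs in the library labelled TG and 1 in the WT library. Over all genes of this cluster, 8.52% were at least 1.5-fold lower and 8.66% at least 1.5-fold higher; of 7 genes followed here with enough UMIs, 2 were lower (Cxcl2 and Cxcl3) and 1 higher (Cxcr6). Cxcl1 stood at 138 CPM (TG) and 201 CPM (WT, ratio 0.688, 0.605 to 0.782), just short of 1.5-fold. Cxcl3 stood at 2.17 CPM (TG) and 44.4 CPM (WT), below 0.1 of its level in neutrophil-like cells of the same library, a level that free RNA can give.

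Cxcl16, the membrane-bound ligand of CXCR6, was highest in macrophage-like cells among the coarser clusters of both libraries. It stood at 548 CPM in the library labelled TG (2020 UMIs) and 492 CPM in the WT library (1107 UMIs), a ratio of 1.11 (1.04 to 1.20), and was found in 66.1% (TG) and 58.9% (WT) of cells. T-like cells, taken as background for this gene, gave 1.89% (TG) and 2.20% (WT) at median depths of 3503 (TG) and 3740 (WT) UMIs. Dendritic-like cells had 214 CPM in the library labelled TG and 276 CPM in the WT library, a ratio of 0.774 (0.646 to 0.928). Neither cluster reached 1.5-fold. In the dendritic-like cluster 11.4% of all genes were at least 1.5-fold lower.

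Cxcr4 in macrophage-like cells stood at 602 CPM in the library labelled TG and 433 CPM in the WT library, a ratio of 1.39 (1.29 to 1.5). A UMI was found in 67.0% of cells in the library labelled TG and 54.8% in the WT library. Cxcr6 there stood at 27.4 CPM (TG) and 7.55 CPM (WT, ratio 3.63), below 0.1 of its T-like level in both libraries. Summed T cell markers in macrophage-like cells stood at 457 CPM in the library labelled TG and 210 CPM in the WT library, and their part in the Cxcr6 value was not tested.

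A pair of patterns ran through every coarser cluster. Cxcr4 was higher in the library labelled TG in 10 of 10 coarser clusters, with ratios between 1.36 in T-like and 6.43 in neutrophil-like cells, of which 5 reached 1.5-fold, and in 14 of 14 finer clusters with enough UMIs. The 10 include fibroblast-like cells, taken as background for Cxcr4, where 8.89% (TG) and 1.22% (WT) of thinned cells had a UMI. The part of free RNA in the Cxcr4 ratios was not tested. Background shares of genes at least 1.5-fold higher were 7.22% in B-like, 10.7% in the Calca- and Dapl1-led lymphoid, 13.1% in the mast cell protease-led, 9.5% in the haemoglobin-led, 11.5% in dendritic-like, 13.5% in fibroblast-like and 8.22% in T-like cells, beside 8.66% in macrophage-like, 14.9% in monocyte-like and 52.1% in neutrophil-like cells. Of 3235 genes with at least 20 UMIs in each coarser cluster, 3.09% were higher in all 10. B-like cells, which held the most Cxcr4 UMIs, had 486 CPM in the library labelled TG and 353 CPM in the WT library (ratio 1.38, 1.30 to 1.46), with a UMI in 62.3% (TG) and 53.4% (WT) of cells. Cxcl2 was lower in the library labelled TG in 10 of 10 coarser clusters, with ratios between 0.0846 and 0.777, and 1.95% of the 3235 genes were lower in all 10. The 10 include the B-like, T-like and lymphoid clusters, where Cxcl2 lay below 0.1 of its level in another cluster in both libraries. Free RNA can give such levels, and its part in the Cxcl2 ratios was not tested. Cxcl2 was at least 1.5-fold lower in 9 of the 10 and Cxcl3 in 8 of 8 clusters with enough UMIs. Background shares of genes at least 1.5-fold lower were 5.61% in B-like, 7.31% in the lymphoid, 14.8% in the mast cell protease-led, 18.6% in the haemoglobin-led, 21.3% in fibroblast-like, 8.27% in T-like and 11.4% in dendritic-like cells, beside 8.52% in macrophage-like, 9.05% in monocyte-like and 9.74% in neutrophil-like cells.

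Neutrophil transcripts outside neutrophil-like cells were also lower in the library labelled TG. The summed neutrophil markers (10 genes, without Cxcr2 and Csf3r) ranged from 11.3 to 217 CPM over the 9 coarser clusters other than neutrophil-like in the library labelled TG and from 233 to 3718 CPM in the WT library, with ratios between 0.0348 and 0.223. B-like cells, which should lack the CXCR2 ligands, had a Cxcl2 UMI in 4.29% of cells in the library labelled TG and in 19.8% in the WT library, and a Cxcl3 UMI in 0.0447% (TG) and 4.52% (WT). Such shares are read as background, and the ligand ratios of lymphoid clusters are too. The part of this background in the other clusters was not tested.

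The balance of Cxcl3 to Cxcl2 also differed. Per 100 Cxcl2 UMIs, neutrophil-like cells held 7.51 Cxcl3 UMIs (6.69 to 8.40) in the library labelled TG and 15.6 (15.3 to 16.0) in the WT library. The ligand-rich cluster had 21.0 (TG) and 32.4 (WT), and the larger monocyte-like finer cluster 0.714 (TG) and 6.70 (WT). Macrophage-like cells held only 0.117 in the library labelled TG and 1.43 in the WT library, although both libraries had abundant Cxcl2 there. Lower Cxcl3 per Cxcl2 in the library labelled TG was thus seen in each of these 4 cell groups. In macrophage-like cells and the larger monocyte-like finer cluster, though, Cxcl3 lay below 0.1 of its level in another cluster, which free RNA can give. Macrophage-like cells had 8 (TG) and 100 (WT) Cxcl3 UMIs, with 64% of those of the WT library in 5 cells. B-like cells, read as background, held 0.926 (0.0232 to 5.27) in the library labelled TG and 21.6 (17.6 to 26.2) in the WT library. The part of this background in the 4 groups was not tested.

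**Figure D5:**
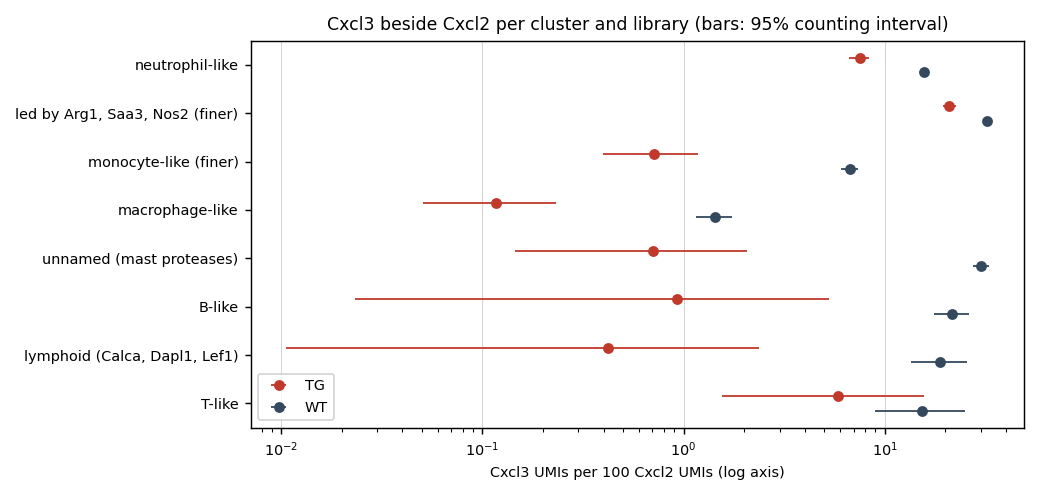
Cxcl3 UMIs per 100 Cxcl2 UMIs (log axis) by cluster, the library labelled TG above the WT library in each row, with 95% counting intervals. Each point of the library labelled TG lies left of the WT point, from 7.51 against 15.6 in neutrophil-like cells to 0.117 against 1.43 in macrophage-like cells.

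Cxcr6, the receptor that positions T cells at CXCL16-bearing cells, was highest in T-like cells. It stood at 385 CPM in the library labelled TG (1026 UMIs) and 440 CPM in the WT library (774 UMIs), a ratio of 0.873 (0.795 to 0.960), and was found in 43.6% (TG) and 43.7% (WT) of cells. In B-like cells 0.581% of cells had a UMI in each library. The finer T-like cluster led by Il17a, a cytokine of type 17 T cells, had 755 CPM (TG) and 779 CPM (WT, ratio 0.969, 0.875 to 1.07), with a UMI in 60.7% of cells in either library. The cluster led by Calca, Csf2 and Il13, genes of type 2 innate lymphoid cells, had 267 CPM in the library labelled TG and 445 CPM in the WT library (ratio 0.601, 0.498 to 0.725), where 13.2% of all genes were at least 1.5-fold lower. The cluster led by Xcl1 and Gzma had 116 CPM (TG) and 79.8 CPM (WT, ratio 1.45). T-like cells in all had 0 members at least 1.5-fold higher and 2 at least 1.5-fold lower, both CXCR2 ligands at background level, against 8.22% of all genes higher and 8.27% lower.

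The remaining genes of the axis came from lists of other chemokines, receptors, adhesion molecules and regulators, 63 of whose 65 members were in the tables. In neutrophil-like cells 16 of 45 list genes with enough UMIs were at least 1.5-fold higher and 8 at least 1.5-fold lower, against 52.1% and 9.74% of all genes there. The counts of higher genes in these lists are read against that share and are no result about the lists. Among attractant receptors other than CXCR2, 0 of 6 were higher and 1 lower. Their median log2 ratio was -0.18, against 0.64 for all genes and 0.14 for those with at least 1000 WT UMIs. The lower gene was Fpr1, the formyl peptide receptor, at 197 CPM (TG) and 791 CPM (WT, ratio 0.249). Csf3, which encodes the ligand of CSF3R, had 0 UMIs in neutrophil-like cells of the library labelled TG and 282 (111 CPM) in those of the WT library, at least 12.3-fold lower against a floor of 3 UMIs per library. Among signalling and desensitisation genes 6 of 10 were higher and 1 lower: Grk2, the kinase that shuts off chemokine receptors, stood at 263 CPM (TG) and 99.5 CPM (WT, ratio 2.65), Rgs2 at 393 CPM (TG) and 93.6 CPM (WT, ratio 4.21), and Rgs18 at 6.05 CPM (TG) and 31.6 CPM (WT, ratio 0.192). Of genes that induce the ligands or decay their mRNA, 5 of 10 were higher and 1 lower, with Il1b at 16842 CPM (TG) and 9301 CPM (WT, ratio 1.81), Zfp36, which destabilises cytokine mRNA, at 2348 CPM (TG) and 1452 CPM (WT, ratio 1.62), and Tnf at 96.8 CPM (TG) and 204 CPM (WT, ratio 0.474). The Il1b and Zfp36 ratios lie close to the 1.56 of the median gene. For genes with at least 1000 WT UMIs the median was 1.1, and both ratios lie above it. Of adhesion genes 2 of 8 were higher, Itga4 (2.95) and Itgal (1.72), and 1 lower, Itgb2 (0.648).

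In monocyte-like cells 8 of 48 list genes were at least 1.5-fold higher and 7 at least 1.5-fold lower, against 14.9% and 9.05% of all genes. Attractant receptors were lower in 3 of 6, with a median log2 ratio of -0.68 against 0.08 for all genes, among them C5ar1, the complement C5a receptor, at 121 CPM in the library labelled TG and 262 CPM in the WT library (ratio 0.461). Csf3 stood at 8.78 CPM (TG) and 78.2 CPM (WT, ratio 0.112, 0.0667 to 0.178). Cxcl9, an interferon-induced ligand of CXCR3, stood at 146 CPM (TG) and 54.2 CPM (WT, ratio 2.68), and the inflammatory cytokines Il6, Tnf and Il1b had ratios of 2.08, 1.72 and 0.671.

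In macrophage-like cells 4 of 52 list genes were at least 1.5-fold higher and 9 at least 1.5-fold lower, against 8.66% and 8.52% of all genes. Cxcl9 stood at 86.8 CPM in the library labelled TG and 10.2 CPM in the WT library, a ratio of 8.50 (5.56 to 13.6). Ccr1, a receptor for CC chemokines, stood at 110 CPM (TG) and 201 CPM (WT, ratio 0.550), Itgam, the CD11b integrin chain, at 129 CPM (TG) and 276 CPM (WT, ratio 0.469), and Tnfaip3, a brake on NF-kB, at 369 CPM (TG) and 233 CPM (WT, ratio 1.59). Summed monocyte markers in macrophage-like cells stood at 1453 CPM in the library labelled TG and 2986 CPM in the WT library, and summed macrophage markers at 24464 CPM (TG) and 24425 CPM (WT). In T-like cells 5 of 38 list genes were higher and 7 lower, against 8.22% and 8.27% of all genes, with Il17a at 680 CPM (TG) and 1263 CPM (WT, ratio 0.538).

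Genes with the most similar pattern were ranked by Pearson correlation of log2(CPM + 10) over 30 points, the 15 finer clusters in each library, among 11464 genes. The points share libraries and cell kinds, so the values describe likeness only. Cxcl2 was most like Cd14 (0.96), the lipopolysaccharide co-receptor, Ptgs2 (0.95), the inducible cyclooxygenase, and Slc11a1 (0.94). Cxcl3 was most like Tarm1, Hp and Dusp16 (each 0.91), and Cxcl1 most like Dram1 (0.92), Mmp19 and Atp6v1a. Cxcr2 was most like Stfa1, Cxcr1, the other interleukin-8 type receptor, and Nlrp12 (each 0.98), and Csf3r most like Trem3 (0.94), Cd300lb and Hcar2. Cxcr4 was most like Grk2 (0.92), Fam111a (0.85) and Adgre5 (0.81), Cxcr6 most like Il12rb1 (0.98), Dkkl1 and Acsbg1, and Cxcl16 most like Dab2 (0.94), Tmem106a and Guca1a. Among the 8 genes themselves, Cxcl2 with Cxcl3 and Cxcr2 with Csf3r gave the highest values, both 0.84, while Cxcr4 with Cxcr2 gave 0.15.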

How the data were processed

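The authors deposited UMI counts per gene and barcode for each library, per the labels made with 10x 5′ chemistry. Cell Ranger 5.0.0, Seurat 4.0 and the mm10 build appear in the submitters' processing notes, with no role given. The deposited metadata give library, cluster numbers at a coarser and a finer resolution, counts of UMIs and genes per cell, and the percent of UMIs from mitochondrial genes, per the file headers. Matrix sums exceeded the deposited count of UMIs by at most 58 (library labelled TG) and 12 (WT). Cell filters are not given in the sources used here.

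Clusters were named from marker lists. Members and lists were chosen with earlier results of these data known. For CPM, UMIs of all cells of a cluster in 1 library were added up and scaled to the cluster's sum. Levels carry exact Poisson, ratios exact conditional binomial and shares Clopper-Pearson 95% intervals. A call needed 1.5-fold and 20 UMIs over both libraries, and a fold against 0 used a floor of 3 counts. Named genes were the 8 members, list genes past 1.5-fold in the clusters where a member was highest, and the 3 genes most like each member. Coordinates came from GENCODE M21 by identifier for 8 of 8 genes and promoters from RefSeq for 7 of 8. Barcodes outside the metadata were assigned by multinomial likelihood, a step that placed 84.6% of 6694 held-out cells in the class deposited for them. Scrublet's automatic threshold called 2 (TG) and 0 (WT) barcodes and did not work, so the 8% highest scores were removed as an alternative. Other alternatives were median-of-ratios and TMM scaling, a total without the 20 most abundant genes, per-cell means, leaving out 5 cells, thinning to 1000 UMIs, a stricter cell filter, finer clusters, other UMI minimums and a 2-fold size. The ratio and call code was tested on simulated data. Python 3.11.15, numpy 2.4.6, scipy 1.17.1, pandas 2.3.3 and scanpy 1.11.5 were used.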

Additional observations from a re-analysis of the deposited data

Results flagged for a closer look

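Csf3r moved in opposite directions in 2 clusters, which is what brought it up: its TG over WT ratio was 2.42 in neutrophil-like cells (447 UMIs in the library labelled TG, 1417 in the WT library) and 0.538 in the unnamed cluster led by mast cell proteases (16 UMIs in the library labelled TG, 22 in the WT library). The interval of the second value, 0.264 to 1.07, includes 1. Csf3r in the second cluster stood at 21.8 CPM (TG) and 40.4 CPM (WT). Both lie below 0.1 of its neutrophil-like level in the same library, which free RNA can give. The difference between the clusters was not tested.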

How the results depend on the processing

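Of 511 recomputed ratios under the alternatives, 415 lay within the 95% counting interval of the reported ratio and 92 lay outside it. The other 4 reversed, a label given only where the reported ratio was past 1.5-fold. Smaller ratios that crossed 1, such as that of Cxcr2 in neutrophil-like cells, are counted among the 415 or the 92. Of 308 recomputed for ratios past 1.5-fold, 287 stayed past it the same way. Monocyte-like Cxcl1 (0.227) was 0.265 with per-cell means and with thinning, 0.140 without the 5 richest cells, 0.484 with barcodes outside the metadata, and reversed to 2.38 in the larger finer cluster and 1.57 without the ligand-rich finer cluster, an alternative added after seeing the data. With median-of-ratios scaling, TMM scaling and a total without the 20 most abundant genes, the neutrophil-like ratios were 0.399, 0.338 and 0.490 for Cxcl2, 0.192, 0.163 and 0.231 for Cxcl3, 0.883, 0.749 and 1.06 for Cxcr2, and 1.55, 1.32 and 1.87 for Csf3r. Without the 5 richest cells Cxcl2 was 0.575 and Cxcl3 0.166. Without the highest doublet scores Cxcl2 was 0.705, Cxcl3 0.344 and Csf3r 2.71. Cxcl2 was 0.678 with barcodes outside the metadata and 0.570 without granule-rich cells, also added after seeing the data. Neutrophil-like Cxcl16 (3.02) reversed to 0.917 without 5 cells and 0.898 without the highest doublet scores. Barcodes outside the metadata brought macrophage-like Cxcl16 to 0.970 and Cxcr4 to 1.55, and the cluster led by Xcl1 and Gzma, taken as the finer match of T-like cells, brought Cxcr6 to 1.45. List genes past 1.5-fold numbered 13 in macrophage-like, 15 in monocyte-like and 24 in neutrophil-like cells, against 7, 9 and 13 past 2-fold and 39 in neutrophil-like cells with no minimum of UMIs. Beyond the changes that follow from the settings themselves, the cause was not tested. No paired analysis was possible because each genotype has 1 library and no test was run.
The neutrophil-like values rest on 330432 UMIs in the library labelled TG and 2533237 in the WT library, and with 1 library a genotype no interval covers differences between mice.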

Other observations

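Of the barcodes outside the deposited clusters that were assigned to the monocyte-like profile, 77 came from the library labelled TG and 634 from the WT library. Cxcl3 stood at 342 CPM in the library labelled TG and 943 CPM in the WT library, a ratio of 0.362 (0.320 to 0.408). Cxcl2 stood at 3332 CPM (TG) and 3870 CPM (WT, ratio 0.861), and Cxcl1 at 192 CPM (TG) and 132 CPM (WT, ratio 1.46). In those assigned to the macrophage-like profile, 393 (TG) and 350 (WT) barcodes, Cxcl2 had a ratio of 0.728, Cxcl16 of 0.879 and Cxcr4 of 1.52. Only 6 barcodes of the library labelled TG and 33 of the WT library were assigned to neutrophils, where Cxcr4 had 2 (TG) and 77 (WT) UMIs (94.3 CPM in TG and 163 CPM in WT, ratio 0.579, 0.0689 to 2.16). Cxcl2 had 132 (TG) and 2806 (WT) UMIs there, a ratio of 1.05 (0.873 to 1.25), so it was not lower in these few barcodes. Cxcl3 had 0 (TG) and 474 (WT) UMIs.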
